A study of Mus musculus with 4 samples.

Results

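The host gene of the miR-23b cluster, Aopep, and 6 genes that other tissues' reports name as targets of these miRNAs (Spry2, Fbxw7, Sema6a, Cdkn1b, Bcl2l11 and Apaf1) were followed in cultured mouse articular chondrocytes. The 7 genes were listed by symbol, with earlier results of these data known. Each symbol had 1 row among the 55141 genes listed in both deposited tables. Chondrocytes were released with 3.5 mg/ml collagenase from the femoral head of 3-week-old mice, and the 3′ end of each mRNA was sequenced with the QuantSeq FWD kit. There were 4 libraries, 1 per condition. The WT library was labelled wild type. The 23cKO library carried floxed alleles (flox/flox) of the miR-23a/b clusters together with Col2a1-cre, in which the Col2a1 promoter drives Cre in chondrocytes. The 26KO library came from miR-26a -/- chondrocytes, and the 26TF library from miR-26a -/- chondrocytes transfected with a miR-26a mimic. The strain was C57BL/6 throughout, with a J substrain given for 26TF. The labels do not say whether the wild-type cells carried floxed alleles, whether 26KO received the negative control siRNA, or how many mice gave each culture. Because each condition had 1 library, no test between conditions was possible, and every interval below covers counting error in the libraries compared and not the spread between cultures.

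The miR-23a and miR-23b clusters are paralogous, and each encodes a miR-23, a miR-27 and a miR-24. A mature miRNA guides Argonaute proteins to mRNAs, mostly through pairing of its seed (bases 2 to 8) with the 3′ untranslated region (UTR), and the paired mRNA is then repressed or degraded. Loss of a miRNA is therefore known to raise the mRNA level of direct targets, often by a small amount, and in cartilage these clusters have been studied in relation to matrix degradation and osteoarthritis. The reported targets followed here act in receptor tyrosine kinase signalling (Spry2), protein degradation (Fbxw7), cell guidance (Sema6a), the cell cycle (Cdkn1b) and apoptosis (Bcl2l11 and Apaf1).

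The mature miRNAs of the 2 clusters are shown because their seeds set the letters sought in the targets. Sequences and positions are those of RefSeq (GRCm38.p6), 5′ to 3′, with the seed in capitals. The miR-23a cluster lies on chromosome 8 and the miR-23b cluster on chromosome 13, and miR-24-3p is the same at both loci. miR-23b-3p belongs to the miR-23b cluster.
miR-23a-3p, chr8:84208563-84208583, plus strand: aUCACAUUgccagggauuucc
miR-27a-3p, chr8:84208727-84208747, plus strand: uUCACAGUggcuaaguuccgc
miR-27b-3p, chr13:63300760-63300780, plus strand: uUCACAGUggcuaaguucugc
miR-24-3p, chr8:84208875-84208896 and chr13:63301251-63301272, plus strand: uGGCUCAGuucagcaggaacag
miR-27a-3p and miR-27b-3p share a seed and differ outside it by C19U, counted from 1 at the 5′ end. The seeds of miR-23a-3p and miR-27a-3p differ by U7G alone, and that of miR-24-3p is unrelated.

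A seed match was read on the mRNA strand only, as AATGTGA for miR-23, ACTGTGA for miR-27 and CTGAGCC for miR-24 (7mer-m8). The same letters followed by A made an 8mer. Without the first letter, but with that A, they made a 7mer-A1, which is ATGTGAA for miR-23, CTGTGAA for miR-27 and TGAGCCA for miR-24. Each 8mer contains both shorter forms and was counted once. The sites below are the 8mers of 4 targets and, for Apaf1, which had none, 1 7mer-m8 each for miR-23 and miR-27, since these letters stand in the transcripts whose levels are described later. All are windows of 30 bases from GENCODE M21 transcripts (GRCm38), in annotated 3′ UTR exons, 5′ to 3′ on the gene's strand, with the match in capitals.
Spry2, miR-23 8mer, chr14:105892252-105892281, minus strand: acattcggaagAATGTGAAtcaatcagtat
Spry2, miR-27 8mer, chr14:105892332-105892361, minus strand: taatatttgcaACTGTGAAaaaaaaacaag
Fbxw7, miR-27 8mer, chr3:84978031-84978060, plus strand: ttaaaacaattACTGTGAAttgtttttgta
Fbxw7, miR-27 8mer, chr3:84978944-84978973, plus strand: actcaagctgaACTGTGAAagtggttaaca
Cdkn1b, miR-24 8mer, chr6:134925414-134925443, plus strand: aaggttgcataCTGAGCCAagtataatttt
Bcl2l11, miR-24 8mer, chr2:128158794-128158823, plus strand: tgcagtgggaaCTGAGCCAgctgatttata
Bcl2l11, miR-24 8mer, chr2:128161146-128161175, plus strand: tcactcgtcaaCTGAGCCAaatgtctctgt
Apaf1, miR-23 7mer-m8, chr10:90990402-90990431, minus strand: tcttcctgggaAATGTGAcctcattgtatt
Apaf1, miR-27 7mer-m8, chr10:90989810-90989839, minus strand: tttacatacttACTGTGAtttaagccaatg
Each of the 6 reported targets held at least 1 match to 1 of the 3 families in its longest annotated 3′ UTR, whereas Aopep, whose longest 3′ UTR had 2322 bases, held none. Spry2 held a miR-23 and a miR-27 8mer in a 3′ UTR of 856 bases, at bases 533 and 453. The 3′ UTR of Fbxw7 (1657 bases) held 2 miR-27 8mers and 1 miR-24 7mer-A1. Cdkn1b held 3 miR-24 matches in 3439 bases, and the 8mer among them lay 97.4% of the way to the 3′ end. Bcl2l11 held 2 miR-24 8mers and a miR-23 7mer-A1 in 4218 bases. Apaf1 held 2 miR-23 and 3 miR-27 matches in 2139 bases, of which the miR-27 7mer-m8 at base 1622 and the miR-23 7mer-m8 at base 1637 were the closest pair.

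Such matches are common and depend on length. Of 21007 protein-coding genes with a 3′ UTR, 22.7% held a miR-23 match, 26.1% a miR-27 match, 22.6% a miR-24 match and 48.7% at least 1 of the 3. An 8mer was held by 6.29% (miR-23), 5.92% (miR-27) and 7.34% (miR-24) of them. The median 3′ UTR had 961 bases, and all of the members except Spry2 were longer. Among genes whose 3′ UTR was within 25% of the length of that of Spry2, 16.3% held a miR-23 match and 20.3% a miR-27 match. Around the length of Fbxw7, 32.2% held a miR-27 match. Around the length of Cdkn1b and of Bcl2l11, 45.6% and 50.1% held a miR-24 match. Around the length of Apaf1, 33.1% held a miR-23 match and 39.8% a miR-27 match. Of the genes near Aopep in length, 76.8% held a match to at least 1 of the families that Aopep lacked. With all annotated 3′ UTRs of the gene in place of the longest, Aopep too held a miR-27 and a miR-24 match. A match describes the letters and is not a measured site of binding.

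**Figure D1:**
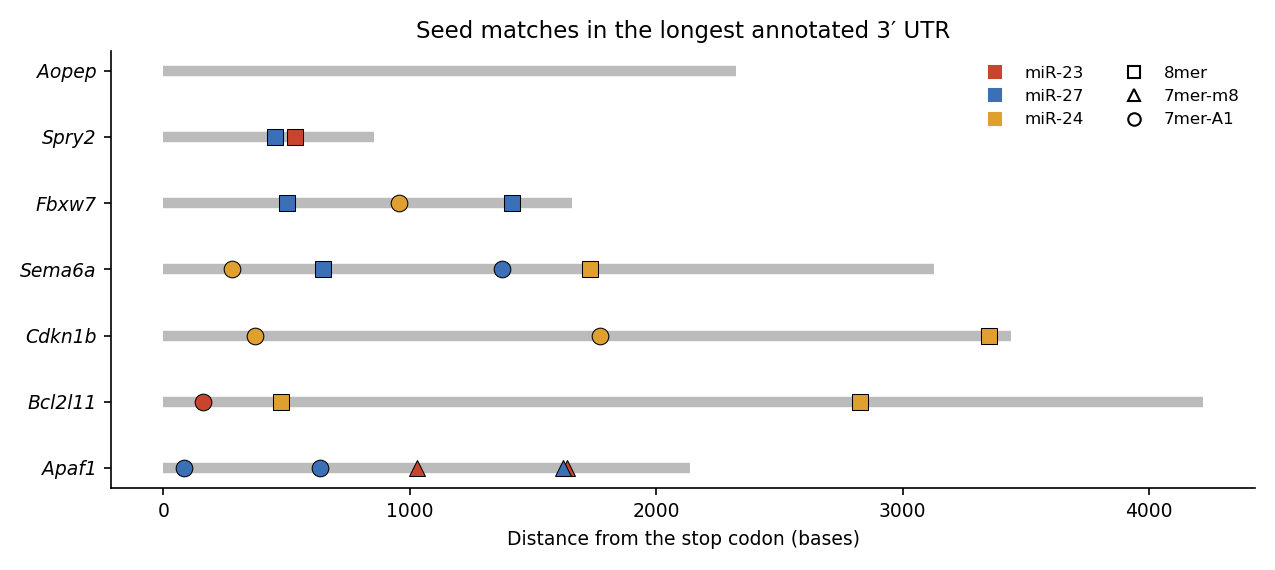
Seed matches in the longest annotated 3′ UTR of each of the 7 genes, plotted by distance from the stop codon in bases, with colour for the miRNA family and shape for the kind of match, and grey bars for the UTR. The bar of Aopep, 2322 bases long, carries no match, and the 2 matches of Spry2 both lie near the middle of an 856-base UTR.

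The libraries held 1505805 (WT), 1369924 (26KO) and 1336496 (23cKO) reads on genes, and 1449246 reads were recovered for 26TF from its TPM values. TPM is the read number of a gene divided by 1 length, on a scale whose total is equal in all libraries. Cell type markers differed between the libraries, and these sums are given in RPM, the reads of a gene as a part of the library's reads on genes, scaled to the same total. The summed level of 10 chondrocyte markers, each detected in every library, was 38443 in WT and 28761 to 29102 in the other 3. That of 10 osteoblast markers was 35193 in WT, 16582 in 26KO, 19231 in 26TF (without Phex, whose reads were not recovered there) and 8603 in 23cKO. That of 10 macrophage markers was 808, 280, 502 and 920 in WT, 26KO, 26TF and 23cKO, and that of 10 cycling cell markers 197, 475, 466 and 435. The markers of a list did not all go 1 way. Against WT, 7 of 9 measured osteoblast markers were lower in 23cKO and Spp1 was higher (2.09), while Ifitm5 had 34 reads in WT and 0 in 23cKO, and Phex had 0 in both. Of the 10 macrophage markers 2 were higher in 23cKO than in WT and 8 included 1, with Lyz2 at 0.979. Against 26KO 9 of them were higher, and against 26TF 7 were. The part of these differences in the results below was not tested. In RNA of whole cultures, fewer cells of a type and less RNA per cell cannot be told apart.

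Loss of the clusters could not be read from these libraries. The 8 miRNA gene rows of the clusters (Mir23a, Mir27a, Mir24-2, Mir3074-2, Mir23b, Mir27b, Mir24-1 and Mir3074-1) had 0 reads in each of the 4 libraries. A count of 0 allows up to 3 reads, or 0.000199% to 0.000224% of the reads of a library. Mature miRNAs have no poly(A) tail and are not primed by oligo(dT), so these rows bear on the deletion in neither direction.

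Aopep, listed in GENCODE M21 under its older name 2010111I01Rik, encodes a zinc aminopeptidase that removes residues from the N-terminal end of peptides. The gene spans 361 kb on the plus strand at chr13:62964893-63326096 (GRCm38), and the miR-23b cluster covers 792 bases that start 336 kb from its start and end 24.8 kb before its end. Of its 28 annotated transcripts, 7 carry the cluster in an intron, 4 overlap it with an exon and 17 end before it. In the coding transcripts of 2979 and 3249 bases the cluster lies in intron 15, which is 2922 bases long. The longest coding transcript, of 3509 bases, ends upstream of the cluster. The deposited tables give 1 sum per gene, so reads from the ends upstream and downstream of the cluster cannot be told apart. Fancc, a gene of DNA repair, overlaps Aopep on the other strand, and whether strand was used in counting is not given in the sources used here.

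**Figure D2:**
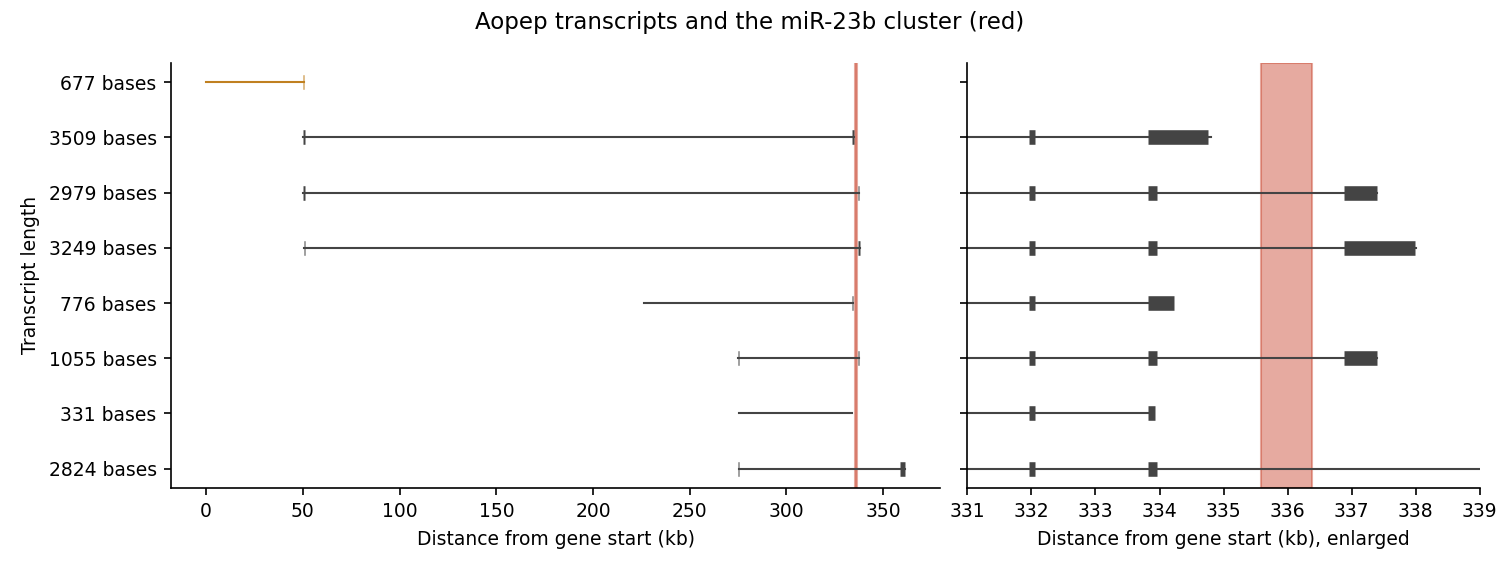
The 7 coding transcripts of Aopep (dark) and its 677-base processed transcript (brown), plotted by distance from the gene start in kb, with exons as blocks, introns as lines and the miR-23b cluster as a red band. The right panel enlarges the region around the cluster, where 4 coding transcripts run through it and 3 end before it.

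Aopep had more reads in 23cKO than in any other library, and it was the 1 member whose interval lay above 1 against all 3. It had 254 reads in WT, 218 in 26KO, 257 in 26TF and 298 in 23cKO. In TPM these were 359, 338, 373 and 464. The first 3 libraries lay within 1.1 times of each other, and 23cKO stood above them. The TPM ratio of 23cKO was 1.29 to WT (95% counting interval 1.09 to 1.53), 1.37 to 26KO (1.15 to 1.64) and 1.24 to 26TF (1.05 to 1.48). The interval of the last no longer excluded 1 at the 99% level. These 3 ratios share the 23cKO library and are not independent of each other. Neither 26KO nor 26TF differed from WT beyond counting error in Aopep (0.943, 0.783 to 1.13, and 1.04, 0.87 to 1.24). The ratio to the pooled reads of the other 3 libraries, a comparison chosen after the data were seen, was 1.3 (1.13 to 1.49).

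In a single comparison, an interval above 1 was not rare. The share of all genes with an interval above 1 against all 3 libraries together was not counted. Over all genes with at least 10 reads in the 2 libraries together, the interval lay above 1 for 10.9% against WT, 7.75% against 26KO and 7.52% against 26TF, and below 1 for 11.2%, 9.7% and 10.4%. Each of the 4 libraries had at least 100 reads in 2066 other genes, and the 3 whose pattern over the 4 libraries came nearest to that of Aopep were Aldh7a1, Map4 and B2m. Aldh7a1, an aldehyde dehydrogenase, had 179, 181, 194 and 237 TPM in WT, 26KO, 26TF and 23cKO. Map4, a microtubule-associated protein, had 39.6, 37.3, 41.4 and 48.3 TPM. B2m, the light chain of MHC class I, had 3677, 3386, 3679 and 4916 TPM. Their distances to Aopep in log2 TPM, each centred on its own mean, were 0.0715, 0.0759 and 0.0783.

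The level of Aopep cannot be set against that of other genes. The length behind its TPM was 677 bases, equal to that of a processed transcript at the gene's 5′ end, and 5.18 times shorter than the longest coding transcript. Reads from 3′ ends do not grow with transcript length in the first place. The ratios between libraries do not depend on this length.

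The genes around the clusters were read for comparison. Fancc had 16, 11, 17 and 9 reads in WT, 26KO, 26TF and 23cKO, so it was lowest where Aopep was highest, and its ratio to WT of 0.619 had an interval of 0.241 to 1.49. Ptch1, the Hedgehog receptor and the next protein-coding gene after Aopep, had 123, 52, 68 and 34 reads. Its ratio was 0.304 to WT (0.202 to 0.448), 0.655 to 26KO (0.412 to 1.03) and 0.536 to 26TF (0.345 to 0.821). Ercc6l2, a DNA repair helicase beyond it, had 19, 36, 18 and 11 reads. Its interval lay below 1 against 26KO (0.306, 0.141 to 0.615) and included 1 against WT and 26TF. Fbp1 and Fbp2, on the other side, had at most 3 reads in any library. Near the miR-23a cluster, Nanos3 had 0 reads in every library, 4930432K21Rik at most 2, and Zswim4 had 9, 5, 8 and 1. The ratio of Zswim4 was 0.122 to WT (0.00279 to 0.883), at 1 read in 23cKO, and 0.201 to 26KO (0.00424 to 1.79). D8Ertd738e had 162, 158, 162 and 158 reads, with ratios of 1.07, 1 and 1.05. None of these neighbours moved with Aopep to an interval above 1.

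Fbxw7, at chr3:84815268-84979198 on the plus strand, encodes the F-box protein that recognises substrates such as cyclin E, MYC and Notch for the SCF ubiquitin ligase. It had 39 reads in WT, 46 in 26KO, 52 in 26TF and 61 in 23cKO, or 8.35, 10.8, 11.4 and 14.4 TPM. WT was the lowest and 23cKO the highest, with the 2 libraries from miR-26a -/- chondrocytes between them. The ratio of 23cKO was 1.72 to WT (1.13 to 2.64), 1.33 to 26KO (0.892 to 1.99) and 1.26 to 26TF (0.855 to 1.86). Only the first of these excluded 1. Against the pooled reads of the other 3 libraries it was 1.41 (1.03 to 1.93). Gm37240 overlaps the 3′ UTR of Fbxw7 on the other strand, so without strand their reads cannot be told apart. The 2 miR-27 8mers shown above stand in that UTR.

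The partners of Fbxw7 in the ligase did not differ beyond counting error. None of Skp1a, Cul1 and Rbx1 had an interval that excluded 1 against any library, and their median ratio to WT was 1.14. Cul1, the scaffold, had 87, 94, 91 and 101 reads in WT, 26KO, 26TF and 23cKO, and Skp1a, the adaptor, 317, 284, 286 and 252. Of 7 measured substrates of Fbxw7, 1 was higher and 1 lower in 23cKO than in WT, with a median ratio of 0.973. Here and for all lists, markers included, measured means at least 10 reads in the 2 libraries together. Of all genes measured so, 10.9%, 7.75% and 7.52% lay above 1 against WT, 26KO and 26TF, and 11.2%, 9.7% and 10.4% below. Of the substrates, Jun, a transcription factor of AP-1, was the higher (1.47, 1.11 to 1.96). Srebf1, a regulator of lipid synthesis, was the lower (0.587, 0.418 to 0.816). Against 26KO 0 of 8 excluded 1, and against 26TF Notch1 alone did, at 13 reads to 2 (named after its values were seen). The median ratio to 26KO was 0.95.

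Sema6a, a transmembrane semaphorin that binds type A plexins, lies at chr18:47235598-47368870 on the minus strand, and its longest 3′ UTR of 3129 bases held 2 miR-27 and 2 miR-24 matches, 1 of each an 8mer. In genes of like 3′ UTR length, 49% held a miR-27 match and 42.8% a miR-24 match. It had 23 reads in WT and 4, 5 and 6 in 26KO, 26TF and 23cKO, or 3.21, 0.613, 0.716 and 0.922 TPM. WT stood apart and the other 3 libraries did not separate from each other. The ratio of 23cKO was 0.287 to WT (0.0957 to 0.726), 1.5 to 26KO (0.357 to 7.25) and 1.29 to 26TF (0.327 to 5.33). Both miR-26a libraries were below WT in Sema6a as well, at 0.191 (0.048 to 0.559) and 0.223 (0.0662 to 0.6). All 3 libraries had an interval below 1 against WT in 2.26% of the 12449 genes with at least 10 reads over the 4 libraries. Summed osteoblast and chondrocyte marker levels, given above, were likewise highest in WT, and their part in the level of Sema6a was not tested.

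Other class 6 semaphorins were at the edge of detection. Sema6b, Sema6c and Sema6d had at most 5 reads in any library. Of 4 measured genes, all type A plexins, 1 was higher and 0 lower in 23cKO than in WT (median ratio 1.59). It was Plxna3, with 23, 15, 26 and 37 reads in WT, 26KO, 26TF and 23cKO and a ratio to WT of 1.77 (1.02 to 3.12). Plxna1 was lowest among them relative to WT (0.904, 0.648 to 1.26). Against 26KO Plxna3 was again higher (2.47), and against 26TF Plxna1 was lower (0.719, 0.522 to 0.985).

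Spry2, at chr14:105891947-105896819 on the minus strand, encodes a Sprouty protein that dampens ERK signalling downstream of FGF and other receptor tyrosine kinases. It was the member whose 3′ UTR carried 8mers for both miR-23 and miR-27. It had 25 reads in WT, 18 in 26KO, 23 in 26TF and 22 in 23cKO, or 11.5, 9.07, 10.8 and 11.1 TPM. The level in 23cKO lay within the range of the other 3. The ratio to WT was 0.969 (0.521 to 1.79), to 26KO 1.23 (0.627 to 2.42) and to 26TF 1.03 (0.545 to 1.93). A ratio of 2 lay outside the first and last of these intervals, whereas a ratio of 1.5 lay inside all 3.

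Of the related inhibitors, Spred1 and Spred2 were the only ones measured against WT, and Spry1, Spry4 and Spred3 had at most 5 reads in any library. Spred1, which also acts on the Ras to ERK pathway, had 89, 59, 77 and 66 reads in WT, 26KO, 26TF and 23cKO and ratios of 0.816 (0.585 to 1.14), 1.12 and 0.92, none of which excluded 1. Spred2 (named after its values were seen) had 13, 7, 7 and 1 reads and a ratio to WT of 0.0847 (0.00199 to 0.564). The median ratio of the 2 was 0.451.

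Cdkn1b, at chr6:134920401-134925513 on the plus strand, encodes p27, an inhibitor of cyclin-dependent kinases that holds cells in G1. It was the best counted of the targets, with 124 reads in WT, 99 in 26KO, 110 in 26TF and 119 in 23cKO. These were 26.1, 22.9, 23.7 and 27.6 TPM. The 23cKO library was highest by TPM and WT by reads, and no ratio of 23cKO excluded 1. The ratios were 1.06 to WT (0.815 to 1.37), 1.21 to 26KO (0.915 to 1.59) and 1.16 to 26TF (0.888 to 1.52). Ratios of 2 and 0.5 lay outside each interval, and a ratio of 1.5 lay outside the first and inside the other 2.

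Unlike those of Cdkn1b, intervals of several other inhibitors of these kinases excluded 1, though the contrast with Cdkn1b itself was not tested. Of 6 measured, 0 were higher and 3 lower in 23cKO than in WT (median ratio 0.825), 1 higher and 3 lower than in 26KO (0.71), and 1 higher and 2 lower than in 26TF (0.772). Over all genes, 10.9%, 7.75% and 7.52% were higher and 11.2%, 9.7% and 10.4% lower in these comparisons. Cdkn1a (p21), a target of p53, had 1037, 849, 921 and 534 reads in WT, 26KO, 26TF and 23cKO, and ratios of 0.567 (0.51 to 0.63), 0.631 (0.565 to 0.703) and 0.622 (0.558 to 0.693). Cdkn2a, whose products are p16 and p19ARF, had 150, 201, 191 and 81 reads and ratios of 0.595 (0.448 to 0.784), 0.404 (0.308 to 0.525) and 0.455 (0.346 to 0.593). Both were lower in 23cKO than in every other library. Cdkn1c (p57), named after its values were seen, had 87, 12, 8 and 46 reads, so its direction depended on the library it was set against. Cdkn2c (p18) had the highest ratio to WT, 1.26 (0.779 to 2.04), and Cdkn2d (p19INK4d), also named afterwards, was lower against 26KO alone (0.635).

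Among 10 G1 cyclins, their kinases and factors that degrade p27, 1 was higher and 4 lower in 23cKO than in WT (median ratio 1.02). Against 26KO 0 were higher and 2 lower, and against 26TF 1 was higher and 3 lower of 9. Among all genes, 10.9% were higher and 11.2% lower against WT, 7.75% and 9.7% against 26KO, and 7.52% and 10.4% against 26TF. Ccnd1 (cyclin D1) had 1276, 1139, 1305 and 538 reads and ratios of 0.464, 0.474 and 0.442, and Ccnd2 (cyclin D2) had 4256, 4404, 4204 and 3536 reads and ratios of 0.915, 0.805 and 0.902. These D-type cyclins were lower in 23cKO than in each other library. Cdk6, a kinase that D-type cyclins activate, had the lowest ratio to WT among those with at least 20 reads in both libraries (0.427, 0.326 to 0.554), and Cks1b, which helps SCF-Skp2 bind p27, the highest among the same genes (1.45, 1.18 to 1.78). Ccnd3 (0.828 to WT) was named after its values were seen. The summed cycling cell markers stood lowest in WT.

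Bcl2l11 (chr2:128126038-128162547, plus strand) encodes BIM, a BH3-only protein that sets off the mitochondrial pathway of apoptosis. It had 15 reads in WT, 16 in 26KO, 17 in 26TF and 16 in 23cKO, or 2.85, 3.34, 3.32 and 3.35 TPM. The 4 libraries did not differ beyond counting error, and 23cKO and 26KO, at 16 reads each, differed in TPM in the third digit only. The ratios were 1.17 to WT (0.544 to 2.55), 1 to 26KO (0.469 to 2.14) and 1.01 to 26TF (0.477 to 2.13). A ratio of 2 was inside each interval, and a ratio of 0.5 was outside the first and inside the other 2.

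Of 7 other pro-apoptotic members of the Bcl-2 family that were measured, Bad was higher in 23cKO than in WT (1.36, 1.07 to 1.74), Bid was higher than in 26KO (2.01) and Bak1, named after its values were seen, was lower than in 26TF (0.42). The others did not exclude 1, and the median ratio to WT was 1.1. Bid had 43, 22, 32 and 44 reads. Of 4 measured anti-apoptotic members, Bcl2 was lower in 23cKO than in WT (0.527, 0.302 to 0.893) and 26TF (0.549), with 46, 37, 43 and 22 reads in WT, 26KO, 26TF and 23cKO. Mcl1 had the highest ratio to WT in this group (0.973, 0.777 to 1.22), and the group's median was 0.719.

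Apaf1, at chr10:90989311-91082770 on the minus strand, encodes the scaffold on which cytochrome c assembles the apoptosome. It had 20 reads in WT, 22 in 26KO, 16 in 26TF and 21 in 23cKO, or 2.98, 3.59, 2.44 and 3.44 TPM. The 23cKO library lay within the other 3. The ratios were 1.16 to WT (0.596 to 2.25), 0.957 to 26KO (0.501 to 1.82) and 1.41 to 26TF (0.7 to 2.89). Of 8 other apoptosome genes and caspases, 0 excluded 1 against WT or 26KO, and 1 was higher than in 26TF. The 1 was Cycs, cytochrome c (2.09, named after its values were seen). Htra2, a mitochondrial protease, had the lowest ratio to WT (0.84, 0.557 to 1.26) among the better counted, below a list median of 1.21.

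**Figure D3:**
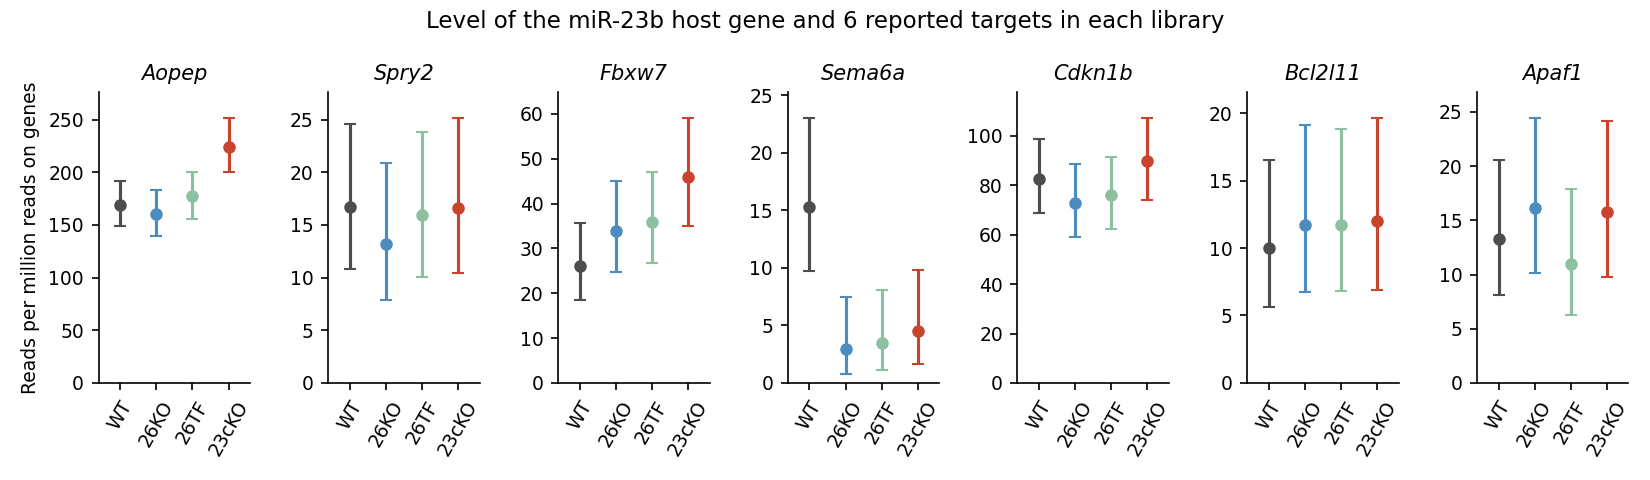
Reads of the 7 genes in RPM in each library, on linear axes that start at 0, with exact 95% Poisson intervals as bars (counting error only, 1 library per condition). Aopep stands highest in 23cKO at 224 RPM. Sema6a stands highest in WT at 15.3 RPM, where its bar (9.73 to 23) just overlaps that of 23cKO (1.66 to 9.83). The bars of Spry2, Fbxw7, Cdkn1b, Bcl2l11 and Apaf1 overlap across all 4 libraries.

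Against WT, 2 of the 7 members had an interval above 1 (Aopep and Fbxw7), 1 below (Sema6a) and 4 included 1, where 10.9% of all genes were above and 11.2% below. Against 26KO and against 26TF, 1 was above (Aopep), 0 were below and 6 included 1, where 7.75% and 7.52% of all genes were above and 9.7% and 10.4% below. All 7 had at least 10 reads in each pair. No member had a ratio above 2 in any comparison, where 6.61%, 6.13% and 5.09% of all genes did (against WT, 26KO and 26TF). One ratio was below 0.5, that of Sema6a to WT, where 6.33% of all genes were, and 5.01% and 5.38% against 26KO and 26TF. The level in 23cKO was above all 3 other libraries in 4 members (Aopep, Fbxw7, Cdkn1b and Bcl2l11) and below all 3 in 0, where 26.6% and 28.7% of all genes were. Of those 4, Bcl2l11 was above 26KO in the third digit only. The median ratio of the 7 was 1.16 to WT, 1.23 to 26KO and 1.24 to 26TF, and that of all genes was 0.99, 0.974 and 0.982.

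**Figure D4:**
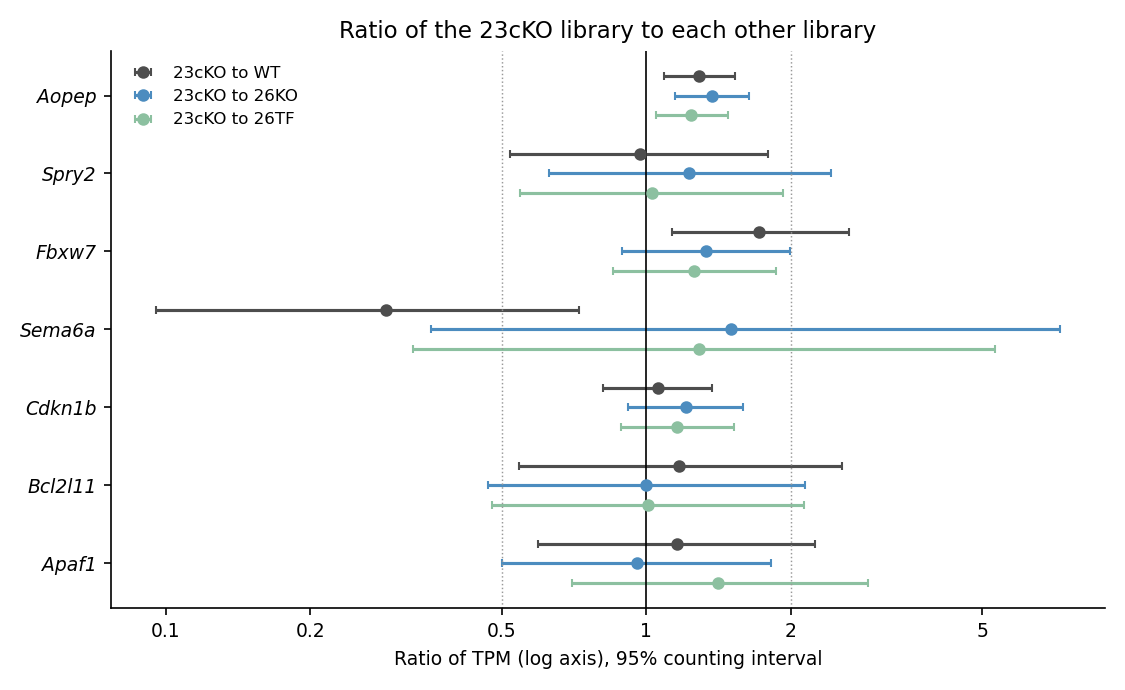
Ratio of TPM of the 23cKO library to WT, 26KO and 26TF for each of the 7 genes on a log axis, with exact 95% counting intervals as bars and dotted lines at 0.5 and 2. Aopep lies to the right of 1 in all 3 comparisons (1.24 to 1.37), Fbxw7 excludes 1 against WT only, and the Sema6a ratios fall on both sides of 1.

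Longer lists of genes reported as targets of each family were read in the same way. Of all genes, 10.9% were above and 11.2% below 1 against WT, 7.75% and 9.7% against 26KO, and 7.52% and 10.4% against 26TF. Of 13 measured reported miR-23 targets, 0 were higher and 4 lower in 23cKO than in WT (median ratio 0.745). Against 26KO 1 of 14 was lower (median 0.845), and against 26TF 1 was higher and 1 lower of 14 (0.925). Tgfbr2, a receptor of TGF-β, was lower against each, with 275, 166, 194 and 93 reads in WT, 26KO, 26TF and 23cKO and ratios of 0.372, 0.562 and 0.514. Tab3 was the higher against 26TF (11 reads to 1), and Foxo3 (0.701), Smad5 (0.719) and Tab2 (0.743) were the others below WT. These 4 were named after their values were seen. Xiap, an inhibitor of caspases, had the highest ratio among the better counted (1.13, 0.682 to 1.89).

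Of 14 measured reported miR-27 targets, 3 were higher and 3 lower in 23cKO than in WT (median 1.04), 4 and 4 against 26KO (1.06), and 3 and 3 against 26TF (1.13). In the same comparisons, 10.9%, 7.75% and 7.52% of all genes were higher and 11.2%, 9.7% and 10.4% lower. Pparg, the master regulator of adipocyte differentiation, had 38, 44, 38 and 115 reads in WT, 26KO, 26TF and 23cKO and ratios of 3.33 (2.29 to 4.94), 2.62 (1.84 to 3.8) and 3.25 (2.23 to 4.82). Cyp1b1, a cytochrome P450, had 49, 84, 82 and 149 reads and ratios of 3.35, 1.78 and 1.95, and Runx1, a Runt family transcription factor, had 22, 19, 19 and 36 reads and ratios of 1.8, 1.9 and 2.03. All 3 were higher in 23cKO than in each other library. Mmp13, the main collagenase of cartilage, had 1415, 2216, 2518 and 836 reads and ratios of 0.65, 0.378 and 0.356, and Adamts5, an aggrecanase, had 63, 95, 93 and 34 reads and ratios of 0.594, 0.359 and 0.392. Mef2c, a transcription factor of chondrocyte hypertrophy, had 186, 80, 84 and 45 reads and ratios of 0.266, 0.564 and 0.575. These matrix proteases and Mef2c were lower in 23cKO than in each other library. Gpam (2.01) and Foxo1 (0.606) excluded 1 against 26KO alone and were named after their values were seen. The marker levels of other cell types given above differed between the same libraries, and their part in these ratios was not tested.

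Of 20 measured reported miR-24 targets, 5 were higher and 2 lower in 23cKO than in WT (median 1.2), 2 and 2 of 21 against 26KO (0.92), and 1 and 2 of 21 against 26TF (0.996). The shares of all genes in these comparisons were 10.9%, 7.75% and 7.52% higher and 11.2%, 9.7% and 10.4% lower. Gata2, a GATA transcription factor, had 18, 14, 16 and 33 reads and ratios of 2.02 (1.1 to 3.81), 2.36 (1.23 to 4.78) and 2.21 (1.18 to 4.31). Cdkn2a, described above, was lower against each. Rrm2, a subunit of ribonucleotide reductase that is made in S phase, had the highest ratio to WT among the better counted (2.86, 1.86 to 4.52) and ratios of 1.15 and 0.996 to 26KO and 26TF. The 4 others above or below WT beside these, Ccnb1 (3.62), Cdk1 (2.15), H2afx (1.65) and Trib3 (0.663), were named after their values were seen, as was Ccna2 (0.501 to 26KO). Ccnb1, Cdk1 and Ccna2 also belong to the cycling cell markers, so the summed level of those markers, higher in 23cKO than in WT, is not a separate measure from theirs, and the part of dividing cells in these ratios was not tested.

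**Figure D5:**
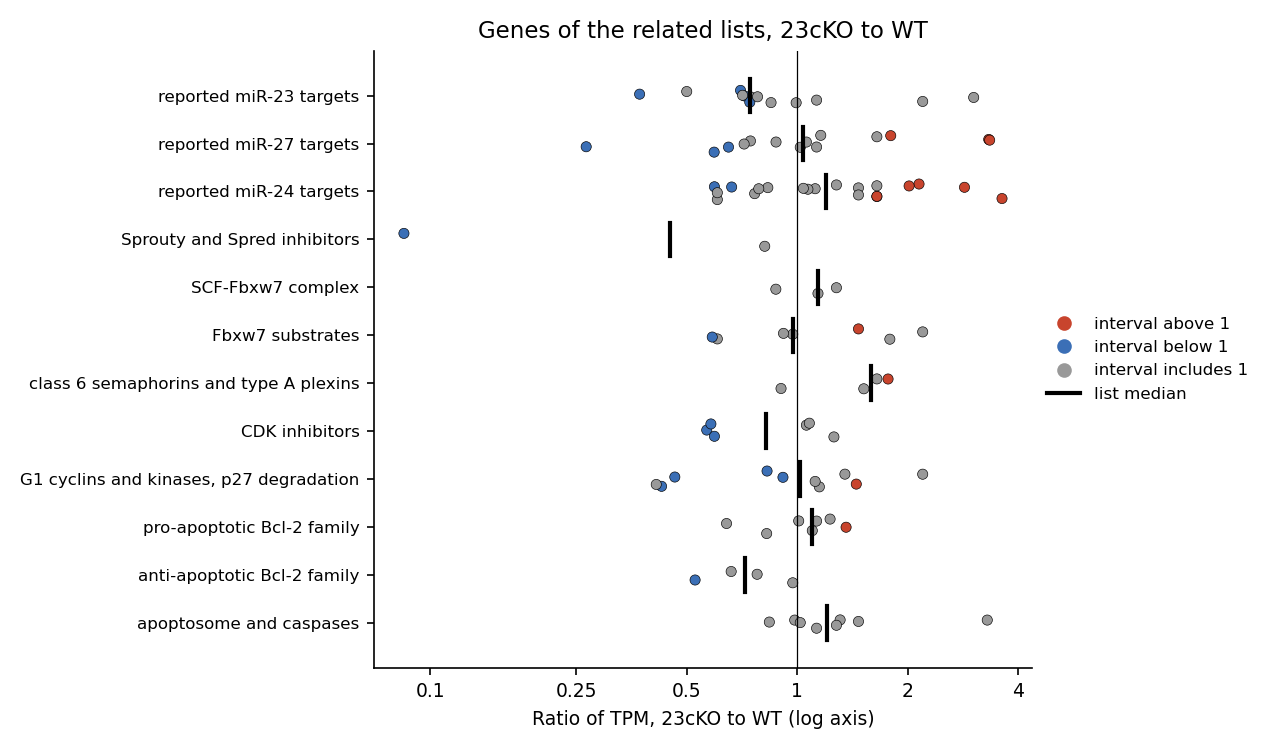
Ratio of TPM of 23cKO to WT on a log axis for the measured genes of the 12 related lists, 1 point per gene, coloured by whether the 95% counting interval lies above 1, below 1 or includes it, with a black bar at each list's median. Medians run from 0.451 (Sprouty and Spred inhibitors, 2 genes) to 1.59 (class 6 semaphorins and type A plexins, 4 genes).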

How the data were processed

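The deposited estimated counts (whole reads per gene, for 3 of the 4 libraries) and TPM (all 4) were made by the authors from single-end QuantSeq reads on mm10 (GRCm38.p6); the aligner and counter are not given in the sources used here. The 4 tables of single libraries repeated the series TPM. Reads of 26TF were recovered from its TPM steps: all 13148 values under 200 reads were whole within 0.05, and 588 genes were not recovered. Ratios of TPM carry exact Clopper-Pearson 95% intervals on the reads, which cover counting error only. The interval was tested on simulated data. Shares over all genes used at least 10 reads in the pair. Seed matches were sought in GENCODE M21 3′ UTRs.

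The members, gene lists and markers were chosen with earlier results of these data known. Named were the members, their neighbours, the miRNA rows, list genes whose interval excluded 1 in the same direction against all 3 libraries, the highest and lowest ratio to WT in each list (at least 20 reads in each) and the 3 genes nearest Aopep. Results of a few list genes are not reported here. Alternatives were RPM, edgeR 4.0.16 TMM and DESeq2 1.42.0 size factors, 99% intervals, other thresholds and other site rules. Python 3.11.15, scipy 1.17.1 and R 4.3.3 were used.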

Additional observations from a re-analysis of the deposited data

How the results depend on the processing

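Replacing TPM by RPM, TMM or DESeq2 size factors multiplied the members' ratios by 1 to 1.03, and no member changed direction or its side of 1 under these or with 0.5 TPM added (84 values). The same 4 members stayed above all 3 libraries. At 99%, the members with an interval above 1 against 26TF went from 1 to 0. With the other 3 libraries pooled (chosen after the data were seen), the Sema6a ratio was 0.596 with an interval that included 1, so the members below 1 went from 1 to 0. At a 1.5-fold threshold, 1 member (Fbxw7) was above it against WT and 1 (Sema6a, 6 reads to 4) against 26KO, from 0 each. With at least 20 reads in each library, 0 members were below 0.5 against WT. With 8mers only, 1 member held a miR-23 match in place of 3. Counts for the related lists under TMM stayed within 1.5 times. No paired analysis was possible because there was 1 library per condition, and for the same reason no replicate could be left out. Depth limited Sema6a, Spry2, Bcl2l11 and Apaf1 most, with 4 to 25 reads per library.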

Other observations

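Genes at large were also divided by seed match, as a description with no test. Of the genes measured against WT, 769 held a miR-23 8mer and had a median ratio of 1.06, and 7750 without a miR-23 match had 0.984. Against 26KO the medians were 1.02 and 0.967, and against 26TF 1.09 and 0.966. For miR-27 8mers the medians were 1.05, 1 and 1.06 against WT, 26KO and 26TF, and without a match 0.986, 0.967 and 0.966. For miR-24 8mers they were 1, 1 and 0.999, and without a match 0.988, 0.965 and 0.975. The divisions share the 23cKO library. For each family, genes with an 8mer had a longer median 3′ UTR than genes without a match. In the comparison with WT it was 2702 against 953 bases for miR-23, 2624 against 919 for miR-27 and 2636 against 957 for miR-24. The part of this length was not tested. In the list of reported miR-23 targets, the 10 measured genes that held a miR-23 match had a median ratio to WT of 0.762 and the 3 without one 0.745. All 14 measured reported miR-27 targets held a miR-27 match. Of the reported miR-24 targets, 8 with a miR-24 match had a median of 1.56 and 12 without one 1.1.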
